A study of Homo sapiens with 18 samples.

Results

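Subtelomeres were taken here as the last 1 Mb of each end of chromosomes 1 to 22 and X, measured from the last base of the hg19 sequence. A peak was a member when its midpoint lay in such a window, whatever its height. Of 430855 peaks in 12 lists, 15452 were subtelomeric, of which 10474 of 288222 were in the 6 DRIP lists and 4978 of 142633 in the 6 RNase H lists. Chromosome Y was left out. Of the 46 ends, 41 had assembled sequence in the window, and the p ends of the acrocentric chromosomes 13, 14, 15, 21 and 22 had none, so that they could hold no peak. The windows together held 38.49 Mb of sequence.

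The lists came from DNA:RNA immunoprecipitation and sequencing (DRIP-seq), in which the antibody S9.6 pulls down fragments of genomic DNA that carry an RNA:DNA hybrid. The cells were HCT116, derived from a human colorectal carcinoma. They were either not treated (NT) or given 10 μM camptothecin (CPT) for 5 or 60 min, and per the study's methods they were lysed about 15 min after the treatment. Each treatment had 2 biological replicates, each pooled from parallel immunoprecipitations, and an aliquot of the same DNA was digested with RNase H before the pull-down as a control for signal that does not come from hybrids. All groups share the parental cell line and differ only in the drug, its time and the digestion, and 6 input libraries served the authors as the peak caller's background. The DRIP lists held 30314 to 72878 peaks and the RNase H lists 473 to 67188, with replicate 2 the longer list in each of the 6 pairs. Read depth is not in the lists, and the read numbers that the study gives elsewhere were not used here. The number of peaks moves with depth, so densities were read as ratios within a list.

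An R loop is a hybrid of a nascent RNA with its template DNA, with the other DNA strand left single. It forms over transcribed, often GC-rich DNA, and topoisomerase I, which CPT traps on DNA, relaxes the negative supercoils behind the polymerase that favour it. The ends of human chromosomes carry tandem TTAGGG repeats, next to which lie duplicated subtelomeric blocks and, further in, some of the most gene-rich sequence of the genome. The repeats are transcribed into the long non-coding RNA TERRA from CpG-rich subtelomeric promoters, and TERRA is known to form R loops at telomeres.

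The strongest subtelomeric peaks lay at the very edge of the assembled sequence, and the sequence under them is shown first. Merged regions were built from DRIP peaks that overlapped by at least 1 bp in both replicates of a treatment. Of the regions with a peak in all 6 DRIP lists, the best at each end was taken by its lowest percentile of fold enrichment within a list, where 100 is the strongest peak of the list. The 5 ends that led this order were 19q, 9p, 11q, 2p and 21q, and each of these regions was centred between 1.01 and 3.07 kb from the first assembled base. The 4 windows of 300 bases around the NT replicate 1 summit are printed from the hg19 plus strand, because they hold the sequence beneath the highest peaks; the window at 9p overlaps an annotated UTR and is not printed. The 19q, 2p and 21q windows are intergenic and so is that of 11q. Capitals mark CCCTCTTGC, GGCGGAGC and TTAGGG, each in either strand.
19q, chr19:59117495-59117794: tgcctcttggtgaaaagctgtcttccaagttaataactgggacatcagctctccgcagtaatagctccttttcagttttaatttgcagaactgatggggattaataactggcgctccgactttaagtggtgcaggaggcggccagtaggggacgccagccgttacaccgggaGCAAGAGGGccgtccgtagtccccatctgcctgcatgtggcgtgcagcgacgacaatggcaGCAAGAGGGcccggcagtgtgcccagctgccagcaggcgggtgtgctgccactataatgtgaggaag
2p, chr2:11682-11981: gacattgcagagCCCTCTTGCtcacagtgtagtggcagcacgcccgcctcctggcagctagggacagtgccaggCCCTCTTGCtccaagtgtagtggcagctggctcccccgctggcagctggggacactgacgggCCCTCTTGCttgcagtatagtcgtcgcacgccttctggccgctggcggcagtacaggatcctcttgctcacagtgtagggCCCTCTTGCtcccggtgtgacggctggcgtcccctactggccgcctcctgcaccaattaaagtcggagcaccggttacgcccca
21q, chr21:48119323-48119622: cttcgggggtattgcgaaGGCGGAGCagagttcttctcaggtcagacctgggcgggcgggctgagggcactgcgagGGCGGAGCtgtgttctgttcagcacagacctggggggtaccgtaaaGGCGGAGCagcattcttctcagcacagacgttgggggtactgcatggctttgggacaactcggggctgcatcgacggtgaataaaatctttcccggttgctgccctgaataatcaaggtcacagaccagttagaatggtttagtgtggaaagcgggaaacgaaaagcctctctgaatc
11q, chr11:134945333-134945632: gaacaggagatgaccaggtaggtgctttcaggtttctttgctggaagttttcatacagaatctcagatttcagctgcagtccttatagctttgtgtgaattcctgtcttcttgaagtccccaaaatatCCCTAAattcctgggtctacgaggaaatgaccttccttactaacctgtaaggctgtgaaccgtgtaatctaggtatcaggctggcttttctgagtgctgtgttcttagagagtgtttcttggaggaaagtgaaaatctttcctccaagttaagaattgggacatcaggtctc

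The windows at 2p and 19q held the same short element. CCCTCTTGC or its reverse complement occurred 4 times in the 2p window and 2 times in the 19q window, whereas 0.243% of all 9451953 windows of 300 bases in the assembled genome held it at all and 24 windows held it 3 times or more. The 21q window held GGCGGAGC 3 times, a motif found in 0.829% of such windows and at 3 or more copies in 144 of them. These letters were chosen after the sequences were read and do not overlap each other. TTAGGG was found in 1 of the 4 windows, at 11q, and in 10.4% of all windows. The whole regions, of 2016 to 6130 bp, did hold telomeric repeats, with TTAGGG in either strand found 23 times at 19q, 41 times at 9p, 10 times at 11q, 28 times at 2p and 19 times at 21q. They were GC-rich, from 50.8% at 11q to 61.7% at 21q, and held between 3.12 CpG dinucleotides per 100 bp at 9p and 8.66 at 21q. The 19q and 21q regions were partly copies of one another, since 33.5% of the 25-base words of 19q occurred in 21q, while other pairs shared at most 3.16%. Of 75-base words sampled in each region, 63.6% were unique in the genome at 19q, 83.3% at 2p, 35.7% at 21q and 29.0% at 9p, with the highest share of the 5 at 11q. Reads of the repeated part could come from another end.

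Peaks at the edge of the sequence were recurrent and stood at the top of the lists. Within 10 kb of the first assembled base, 8 of 41 ends carried a peak in all 6 DRIP lists (2p, 8q, 9p, 11q, 13q, 16p, 19q and 21q), 18q in 5 and 7q in 2, and the other 31 ends in none. At 19q the best terminal peak ranked 1st to 12th of its list from the top, with 33.8- to 111-fold enrichment over input. The one at 9p spanned 5189 to 6125 bp, the widest of these peaks, and overlapped WASHC1, which encodes a subunit of the actin-nucleating WASH complex. Its percentile was never below 99.95. Those of 2p and 21q did not fall below the 99.93rd and 99.92nd percentile. The best terminal peak of 16p ranged from the 63.8th to the 99.1st. At 16p and 8q it was not the same peak in each list. At 16p it lay at chr16:60609-61213 in CPT 60 min, replicate 2 and at chr16:64129-64652 in NT, replicate 1. At 8q CPT 60 min, replicate 1 had only chr8:146301077-146301372, whereas the other lists had a peak from position 146303099.

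Most of these ends also had a terminal peak after RNase H digestion. At 9p, 19q and 21q all 6 RNase H lists held a terminal peak, at 2p, 8q, 11q and 18q 5 of 6 did, at 13q 4 and at 16p and 7q none. In NT replicate 1, whose RNase H list had 473 peaks in all, the terminal peaks of 19q, 9p, 2p and 21q reached the 94.9th, 94.7th, 93.2nd and 96.4th percentile, while that of 8q stood at the 80.1st and that of 11q at the 39.0th. Among the 15 ends with at least 20 copies of TTAGGG in their first 1 kb of sequence, 18q, 19q, 9p and 2p carried a terminal DRIP peak. The others of these ends carried none. This share was close to that over all ends, of which 10 of 41 had a terminal peak in any DRIP list. The ends 21q and 7q, with 18 copies each, had a terminal peak and lay just below the cut. Whether sequence copied between ends or signal that resists digestion accounts for these peaks was not tested.

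**Figure D1:**
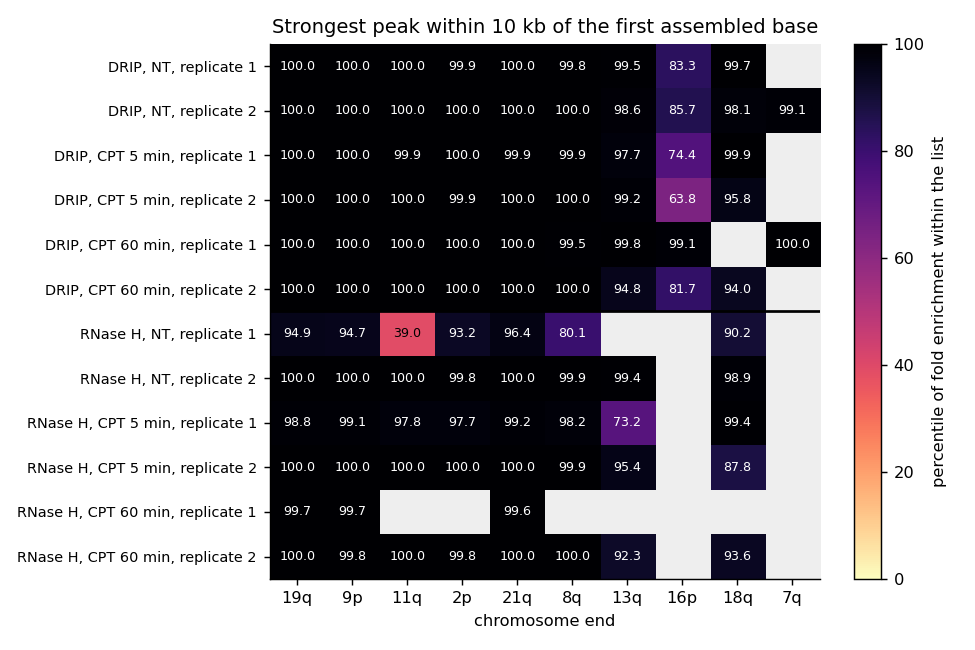
Strongest peak within 10 kb of the first assembled base at the 10 chromosome ends (columns) with such a peak in any DRIP list, for each of 12 lists (rows). Colour and number give the percentile of fold enrichment within the list, grey means no peak, and the black line divides DRIP from RNase H lists. The first 5 columns lie above the 99.9th percentile in every DRIP list, and 16p and 7q have no RNase H peak.

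Subtelomeres as a whole held more DRIP peaks per Mb than the rest of the genome. NT replicates 1 and 2 had 34.2 and 58.9 subtelomeric peaks per Mb, against 10.4 and 18.1 elsewhere. After 5 min of CPT the replicates had 26.1 and 50.9 against 11.7 and 19.5, and after 60 min 41.5 and 60.5 against 14.3 and 25.2. The ratio was thus 3.30 and 3.25 in NT, 2.23 and 2.61 after 5 min and 2.89 and 2.40 after 60 min. Its log2 was 1.46 ± 0.23 (SD, n = 6 lists), above 0 in 6 of 6 lists (exact two-sided sign-flip permutation test, p = 0.03125, the smallest that 6 lists allow, and 0.0521 after Benjamini-Hochberg adjustment over 5 tests).

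How much of this excess remained at equal gene density depended on the measure of gene density, on the window size and on whether GC content was matched. Subtelomeric sequence held 17.1 protein-coding genes per Mb, 657 in all, against 6.95 per Mb elsewhere, and its GC content was 48.1% against 40.8%. When each window was compared with the mean of the other windows of its gene density class (under 2, 2 to 5, 5 to 10, 10 to 20, 20 to 30 and 30 or more genes per Mb), the ratio was 1.41 and 1.35 in NT, 1.28 and 1.29 after 5 min and 1.33 and 1.18 after 60 min. Its log2 of 0.38 ± 0.085 (SD, n = 6) was positive in 6 of 6 lists (exact sign-flip test, p = 0.03125, adjusted 0.0521). All lists share the same windows, so the SD and p of such tests describe agreement between lists and not the spread over chromosome ends. Other settings moved the remainder at equal gene density both ways. It was 1.19 when windows were matched on the share of bases in protein-coding genes in place of the gene count, and 0.65 for the last 2 Mb, above 0 in 6 of 6 lists each. With windows matched on GC content in place of gene density it was 0.11, above 0 in 5 of 6 lists (exact sign-flip test, p = 0.0625). In the last 500 kb the same log2 ratio was -0.21 and with GC content added in a Poisson regression it was -0.25, both below 0 in 6 of 6 lists (exact sign-flip test, p = 0.03125). The class of 10 to 20 genes per Mb, with 17 of the 41 windows, showed the largest difference per Mb in NT, at 38.2 and 66.0 peaks per Mb in NT against 17.8 and 37.3 for other windows of this class. In windows with 30 genes or more per Mb the values lay close together, at 70.6 and 110 per Mb in NT against 64.5 and 104.

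Subtelomeric peaks were wider than other peaks. Their median width was 670 and 617 bp in NT against 560 and 510 bp, 583 and 568 bp after 5 min against 542 and 461 bp, and 604 and 697 bp after 60 min against 485 and 547 bp. The log2 of the ratio was 0.27 ± 0.086 (SD, n = 6), with all 6 lists above 0 (exact sign-flip test, p = 0.03125, adjusted 0.0521). It was 0.33 for the last 2 Mb and 0.16 for the last 500 kb. Peaks between 1 and 2 Mb from the end had medians of 733 and 657 bp in NT. Their medians were 613.5 and 602 bp after 5 min and 647 and 690 bp after 60 min. The greater width was thus not particular to the last 1 Mb. Peaks over 5 kb made up 7.67% and 6.44% of subtelomeric peaks in NT against 2.77% and 3.54% elsewhere. The widest subtelomeric DRIP peak in 4 of the 6 lists lay at 8q over RECQL4, which encodes a DNA helicase of the RecQ family, and measured 29871 bp in NT replicate 1.

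Rank within the list differed less. The median percentile of fold enrichment of subtelomeric peaks was 53.3 and 58.2 in NT, 45.3 and 56.6 after 5 min and 55.0 and 54.7 after 60 min. Set against the other peaks of each list this was 4.37 ± 4.11 percentile points higher (SD, n = 6, higher in 5 of 6 lists), which did not pass the test (exact sign-flip test, p = 0.0938, adjusted 0.117). The 1 list below 0 was that of CPT 5 min, replicate 1, at -3.10 points. After adjustment none of the 5 tests of subtelomeres against the rest, those of density and width included, had a p below 0.05.

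Position relative to genes and base composition also differed between subtelomeric and other peaks, as a description, and so did the sequence they lie in. Between 76.0% and 83.2% of subtelomeric midpoints lay in protein-coding genes, against 58.0% to 75.0% for other peaks. Such genes covered 54.1% of subtelomeric bases and 45.7% of those elsewhere. The median GC content of the 300 bases around the summit was 52.7% to 57.0% against 43.7% to 51.0%. That of the sequence as a whole was 48.1% against 40.8%. Whether the peaks differ beyond their sequence was not tested. The telomeric hexamer was less frequent in subtelomeric peaks in 5 of the 6 lists and more frequent in CPT 5 min, replicate 1 (8.95% against 8.66%). Over the lists, 6.61% to 8.95% of subtelomeric summit windows held TTAGGG in either strand, against 8.66% to 9.19% of the others and the 10.4% of all genomic windows given above. A tandem pair of the hexamer was rare, in 1 to 3 subtelomeric peaks per list (0.0429% to 0.298%), and its share was higher than in the other peaks (0% to 0.0207%) in each of the 6 lists.

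The RNase H lists held subtelomeric peaks as well. At equal gene density the RNase H lists had 5.21 and 1.59 times the peaks of other windows in NT, 2.52 and 1.22 after 5 min and 1.71 and 1.17 after 60 min. DRIP minus RNase H was -0.56 ± 0.75 on the log2 scale (SD, n = 6 pairs, negative in 4 of 6), which did not pass the exact sign-flip test (p = 0.125, adjusted 0.125). The difference was -0.048 without replicate 1 and -1.08 without replicate 2. It thus rested on replicate 1, whose RNase H lists held only 473 to 5391 peaks. Of subtelomeric DRIP peaks, 1.52% and 18.3% in NT, 7.36% and 41.0% after 5 min and 3.07% and 55.6% after 60 min overlapped a peak of the paired RNase H list. The share was higher than among the other DRIP peaks in 6 of 6 lists, where it ranged from 0.397% to 48.8%. By merged region the shares that met a peak of any RNase H list were close, at 74.6% against 73.4% elsewhere. Overlap was highest in replicate 2, where the RNase H lists were longest.

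Density was not even along the last Mb. The mean over the 6 DRIP lists was 9.79 peaks per Mb within 50 kb of the end, 11.1 between 50 and 100 kb and 14.0 between 100 and 250 kb. It was 43.0 between 250 and 500 kb, 60.6 between 500 and 750 kb and 59.6 between 750 and 1000 kb, and was 56.6 between 1 and 2 Mb and 14.6 beyond 10 Mb. The step near 250 kb was larger than that of the genes, which numbered 15.4 per Mb between 100 and 250 kb and 18.2 between 250 and 500 kb. The share of unique 75-base words also differed over this stretch, from 47.7% in the outermost 50 kb to 77.2% between 100 and 250 kb and 93.7% between 250 and 500 kb. Its part in the low counts was not tested.

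**Figure D2:**
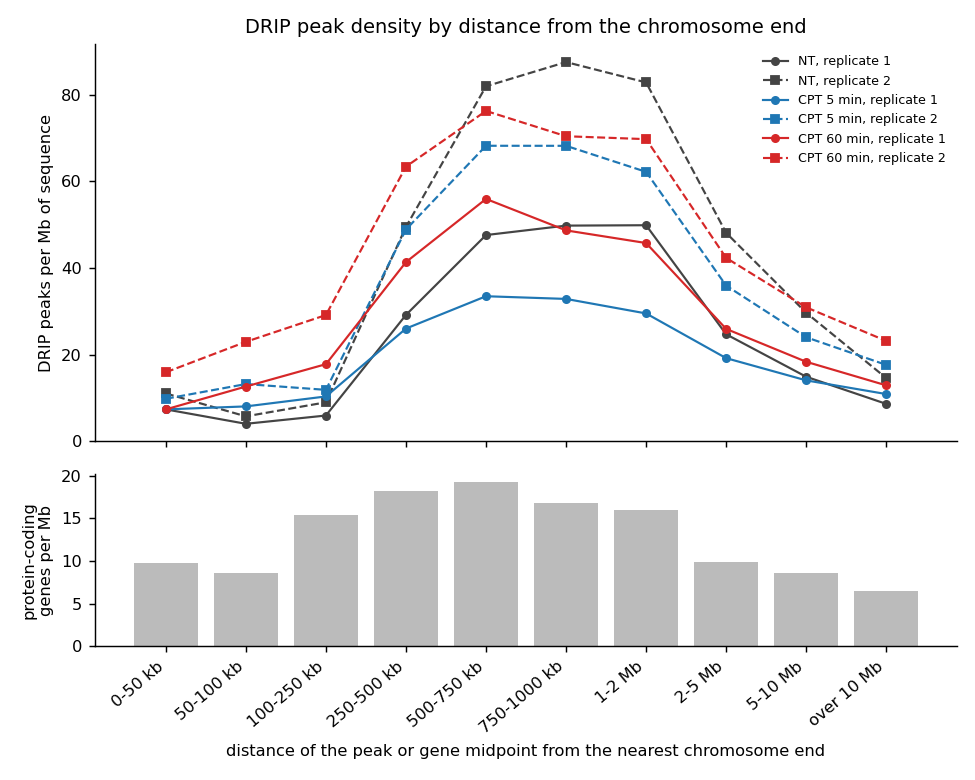
Upper panel, DRIP peaks per Mb of assembled sequence (y axis) in bins of distance from the nearest chromosome end (x axis), 1 line for each of the 6 lists. Lower panel, protein-coding genes per Mb in the same bins. Between 100 and 250 kb the NT lists stood at 5.93 and 8.97 per Mb and the 60 min lists at 17.8 and 29.1, and between 750 and 1000 kb at 49.8 and 87.5 against 48.7 and 70.4.

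The balance between the outer and the inner part of the window differed after CPT. NT lists had 335 and 559 peaks in the outer 500 kb and 982 and 1709 in the inner 500 kb. After 5 min the counts were 337 and 582 outside and 669 and 1376 inside, and after 60 min 540 and 849 outside and 1056 and 1480 inside. The split at 500 kb was set after the profile by distance had been seen. The outer part held 25.4% and 24.7% of subtelomeric peaks in NT, 33.5% and 29.7% after 5 min and 33.8% and 36.5% after 60 min, with no overlap between NT and either time. The increase was 6.57 percentage points after 5 min (8.06 and 5.07 in replicates 1 and 2) and 10.1 after 60 min (8.39 and 11.8). With 2 lists against 2 the exact two-sided permutation test gave p = 0.33 for both, which is the smallest it can give. After 5 min this came from the inner part alone: as a percent of all peaks in the list, the outer part was at 1.105 and 1.055 in NT and 0.9955 and 1.029 after 5 min, lower in both replicates, and the inner part at 3.239 and 3.227 against 1.976 and 2.434. After 60 min the outer part was at 1.296 and 1.165, higher in both replicates, and the inner part at 2.534 and 2.031. Between 750 and 1000 kb the density after 60 min was below that of NT in both replicates, at 48.7 and 70.4 per Mb against 49.8 and 87.5.

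Over the whole window the log2 density ratio without regard to genes was 1.72 and 1.70 in NT, 1.15 and 1.38 after 5 min and 1.53 and 1.26 after 60 min, so that both CPT times lay below NT without overlap. At equal gene density the log2 ratio was lower than in NT by 0.10 after 5 min and by 0.14 after 60 min, in both replicates each time (exact permutation test, p = 0.33, adjusted 0.67 over 6 tests). With the share of bases in genes in place of the gene count the differences were -0.37 and -0.28, and for the last 2 Mb -0.28 and -0.32. In the last 500 kb alone they were of the other sign, 0.20 and 0.31. The width ratio changed by -0.06 and 0.07 on the log2 scale (exact permutation test, p = 1.0 and 0.33), and the rank difference by -3.82 and -0.04 percentile points (p = 0.67 and 1.0).

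The merged regions gave the gains and losses by position. Of 28518 regions in the genome, 1187 were subtelomeric, and 217 of these (18.3%) had a peak in all 6 lists, against 13.0% of all regions. A region was called gained when both CPT lists of a time and neither NT list had a peak, and lost in the reverse case. In the last 1 Mb, 81 regions were gained after 5 min (6.82%, against 13.6% of all regions) and 284 after 60 min (23.9% against 29.7%). Losses numbered 214 after 5 min (18.0% against 12.6%) and 208 after 60 min (17.5% against 12.5%). So the shares gained were below and the shares lost above the background. When peaks had to cover 50% of a region, the share gained after 60 min was instead above it, at 20.5% against 19.4%. Without the regions met by any RNase H peak, 301 subtelomeric regions were left, of which 39.2% were lost after 5 min and 41.9% after 60 min, against 28.1% and 30.4% of all such regions. Of the same regions 6.64% were gained after 5 min against 16.8%, and 23.9% after 60 min against 24.6%, so that the 60 min gains were close to the background. At both times 42 regions were gained (3.54% against 5.33%) and 131 lost (11.0% against 7.87%), and 163 were gained after 60 min with no peak in any NT or 5 min list (13.7% against 14.6%).

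The outer 500 kb differed from the inner 500 kb in these calls. After 60 min 154 of 400 regions in the outer part were gained (38.5%) and 54 lost (13.5%). In the inner part 130 of 787 were gained (16.5%) and 154 lost (19.6%), and between 1 and 2 Mb 12.2% were gained and 23.3% lost. After 5 min 10.2% of the outer regions were gained and 13.2% lost, against 5.08% and 20.5% of the inner regions. At both times the gained share was lower, and the lost share higher, in each zone farther from the end. Over all regions of the genome, 13.6% were gained and 12.6% lost after 5 min, and 29.7% and 12.5% after 60 min. Among the gains, only those of the outer part after 60 min stood above the share of all regions. The outer losses lay close to that of all regions at both times. No test was made of the shares by zone, which rest on 2 lists per treatment.

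**Figure D3:**
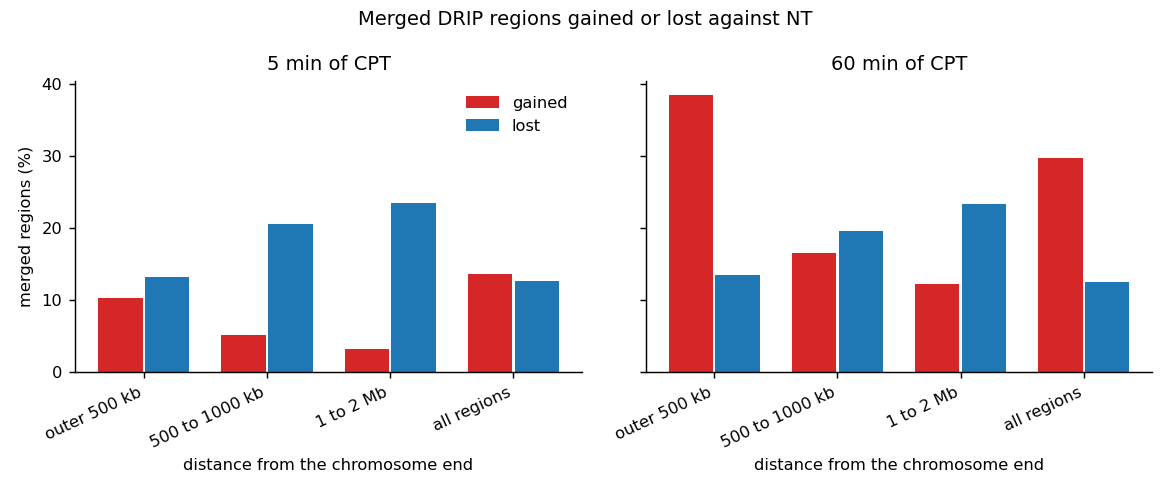
Percent of merged DRIP regions (y axis) gained (red) or lost (blue) after 5 min (left) and 60 min (right) of CPT, in 3 zones of distance from the chromosome end and over all regions of the genome. Gains after 60 min stood at 38.5% in the outer 500 kb and 12.2% between 1 and 2 Mb, with 29.7% over all regions.

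Genes were counted in the same way, with gains more frequent in the outer part but not losses. A gene was taken with the 1 kb before its start, and called gained when both CPT lists and neither NT list had a peak on it. After 60 min 35 of 293 protein-coding genes in the outer 500 kb were gained (11.9%), spread over 16 ends, against 4 of 364 in the inner 500 kb (1.10%) and 7.47% of all 20098 genes. After 5 min 17 outer genes (5.80%) and 1 inner gene (0.275%) were gained, against 4.73% of all genes. Fewer inner genes could be gained, since 72.3% and 81.6% of them had a peak in the NT lists, against 37.9% and 46.4% of the outer genes. Lost genes were few, 4 outer and 5 inner after 5 min (1.37% each) against 2.38% of all genes, and 3 (1.02%) and 6 (1.65%) after 60 min against 1.53%. Median gene length was 15.9 kb in the outer part and 15.7 kb in the inner. A peak in all 6 lists was found on 22.9% of the outer genes and 54.7% of the inner genes, and on 5256 of 19441 genes elsewhere.

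Of 75 subtelomeric genes in 6 lists drawn up by function, 42 had a peak in all 6 DRIP lists and 14 in none. Of all 657 subtelomeric protein-coding genes, 40.5% had a peak in all 6 and 20.9% in none, the background for the counts by group that follow. By position, 9 of 32 genes in the outer 500 kb and 33 of 43 in the inner part had a peak in all 6. Of the genes with no NT peak, 7 had one in both 60 min lists, and all 7 lay in the outer part: MPG, POLR3K, TBP, TRIM28, RPL35A, SDHA and SHANK3. Few of the listed inner genes could be gained, since 33 of the 43 had a peak in every list. The share gained after 60 min was 11.9% of all outer genes, 1.10% of all inner genes and 7.47% of all genes.

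TRIM28 at chr19:59055431-59062089 on 19q, 70.2 kb from the end, encodes the corepressor KAP1 that acts with KRAB zinc finger proteins. Neither NT list had a peak on it. Peaks covered 100% and 95.8% of the gene and the 1 kb before it after 5 min, and 92.2% and 95.8% after 60 min, with the best peak between the 98.9th and the 99.8th percentile. RPL35A at chr3:197677061-197683481 on 3q, a protein of the large ribosomal subunit, showed the same pattern, with no NT peak, 69.7% and 89.6% covered after 5 min and 41.9% and 95.8% after 60 min. The RNase H lists of replicate 2 held peaks on both genes at both CPT times, and those of replicate 1 held none.

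MPG at 16p, a DNA glycosylase of base excision repair, and POLR3K, a subunit of RNA polymerase III at the same end, had peaks after 60 min only. Peaks covered 20.1% and 35.4% of MPG, and 13.1% and 29.3% of POLR3K. TBP at 6q, the TATA-binding protein, was covered to 2.59% and 28.4% after 60 min and had a peak in 1 of the 5 min lists, at 4.68%. SDHA at 5p, a subunit of succinate dehydrogenase, had 1.52% and 6.14% after 5 min and 10.3% and 13.7% after 60 min. The 60 min replicates of TBP lay far apart.

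Replication, repair and R-loop factors numbered 14, of which 8 had a peak in all 6 lists and 1, BRCC3 at Xq, in none. RECQL4 was covered to 100% in each of the 6 lists. RTEL1 at 20q, a helicase that takes apart telomeric loops, was covered to 37.4% and 62.2% in NT, 11.3% and 37.9% after 5 min and 25.9% and 58.4% after 60 min, and its lists overlapped between treatments. RNH1 at 11p, which encodes the ribonuclease inhibitor and not an RNase H, was covered to 88.6% and 92.8% in NT, 37.8% and 74.5% after 5 min, and 65.3% and 74.5% after 60 min. FANCA at 16q, of the Fanconi anaemia core complex, and POLE at 12q, the catalytic subunit of DNA polymerase epsilon, had peaks in all lists at 11.3% to 32.9% and 8.92% to 21.7%.

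Genes of the transcription machinery numbered 12, of which 8 had a peak in all 6 lists. POLR2L at 11p, a small subunit shared by the RNA polymerases, was covered to 100% in both NT lists, 17.3% and 95.4% after 5 min and 58.9% and 100% after 60 min. MED16 at 19p, of the Mediator complex, stayed between 70.8% and 92.3%. Of 8 ribosome and translation genes, 5 had a peak in all lists, RPL8 at 8q was covered to 100% in each, and RACK1 at 5q had none. Of 17 signalling and metabolism genes, 15 had a peak in all lists and none was without one. CD151 at 11p, a tetraspanin, and STUB1 at 16p, a ubiquitin ligase, were covered to 100% in both NT lists, and to 59.4% and 60.7% in CPT 5 min, replicate 1. In replicate 2 of that time they were at 100% and 91.55%, and both were at 100% in each 60 min list.

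Genes restricted to other tissues ranged from no peak to broad cover. None of the 5 alpha-globin cluster genes at 16p had a peak in any of the 6 lists, although MPG next to them did after 60 min. Of 19 other tissue-restricted genes, 7 had no peak and 6 had one in all lists. MSLN at 16p, mesothelin, was covered to 69.4% to 93.7%, and KISS1R at 19p, the kisspeptin receptor, to 33.5% to 78.5%. HCN2 at 19p, a pacemaker channel of heart and brain, was covered to 10.0% and 42.1% in NT, and to 13.6% or less in each of the CPT lists. VIPR2 at 7q and DRD4 at 11p had peaks in both NT lists and none in the 60 min lists. Those on VIPR2 were weak, at percentiles 5.02 and 27.5, and covered 0.455% and 0.257%. RNase H lists of CPT 5 min, replicate 2 and CPT 60 min, replicate 1 held a peak on VIPR2. The NT peaks on DRD4 stood at percentiles 92.2 and 97.8.

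**Figure D4:**
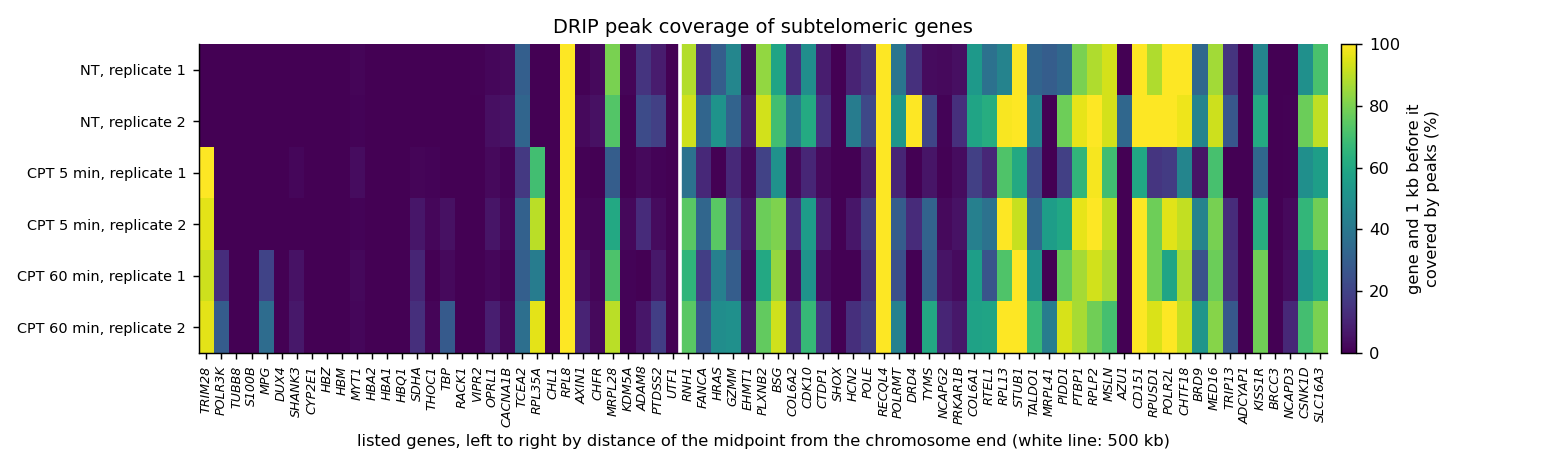
Percent of each gene and the 1 kb before it covered by DRIP peaks (colour) for the 75 subtelomeric genes of the lists (columns, ordered by distance from the chromosome end) in the 6 DRIP lists (rows). The white line marks 500 kb. To its left TRIM28 and RPL35A are covered in the 4 CPT lists alone, and to its right 33 of 43 genes carry a peak in every list.

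Among the regions gained at both times, that over IQCG, LMLN and RPL35A at 3q was the strongest, with its lowest percentile at 98.3 over the 4 CPT lists. It was 12669 bp wide. It was followed by regions over PLEKHG4B at 5p (97.7), PSMB1 at 6q (91.0), PPP6R2 at 22q (86.9) and UBE2M at 19q (85.8). Of those gained after 60 min only, the leading 5 lay over CHSY1 at 15q (97.7), WNK1 at 12p (93.3), ENOSF1 at 18p (90.1), RHBDF1 and SNRNP25 at 16p (89.3) and PSMD13 at 11p (88.6). PSMB1 and PSMD13 encode proteasome subunits, and WNK1 a kinase that regulates ion transport. All 10 of these regions met a peak in at least 1 RNase H list, as did 886 of all 1187 subtelomeric regions (74.6%). Elsewhere 20058 of 27331 regions did (73.4%), a share close to that of the subtelomeres. The leading lost regions lay near BOP1 at 8q (96.2, none of the 75-base words sampled in it unique), and over FBRSL1 at 12q (84.2), 2 over GAK at 4p (80.2 and 74.8) and over DEAF1 at 11p (75.4). They measured 508 to 2617 bp, and 4 of the 5 met no RNase H peak. The RNase H lists held 473 and 15790 peaks in NT and 3439 to 67188 after CPT. The part of list length in these overlaps was not tested.

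The chromosome ends differed widely from one another. The most peaks per Mb were found at 16q, with 94.7 and 183 in NT, 73.4 and 153 after 5 min and 106 and 147 after 60 min, and a mean over 6 lists of 126 ± 41.4 (SD, n = 6). The means of 19p (124), 11p (121), 20q (115) and 8q (94.9) followed, with SDs of 22.5 to 42.9 over the lists. These SDs include the difference in length between the lists, which all ends share, and the order of the ends was not tested. The fewest were found at Xp, with no peak in any list over 840 kb of sequence, and at 4q (1.12), 3p (1.42), 14q (1.77) and Xq (2.02). The Xp window and the outermost part of Xq are pseudoautosomal and have a copy on Y, and whether that copy was masked in the alignment is not given in the sources used here. Its part in the low counts at these ends was not tested. The 10 ends with the most peaks held 52.9% of all subtelomeric DRIP peaks. Over the 41 ends Spearman's rho of peaks per Mb with genes per Mb was 0.70 to 0.79 in the 6 lists, and with GC content 0.82 to 0.88, over ends that share their libraries.

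**Figure D5:**
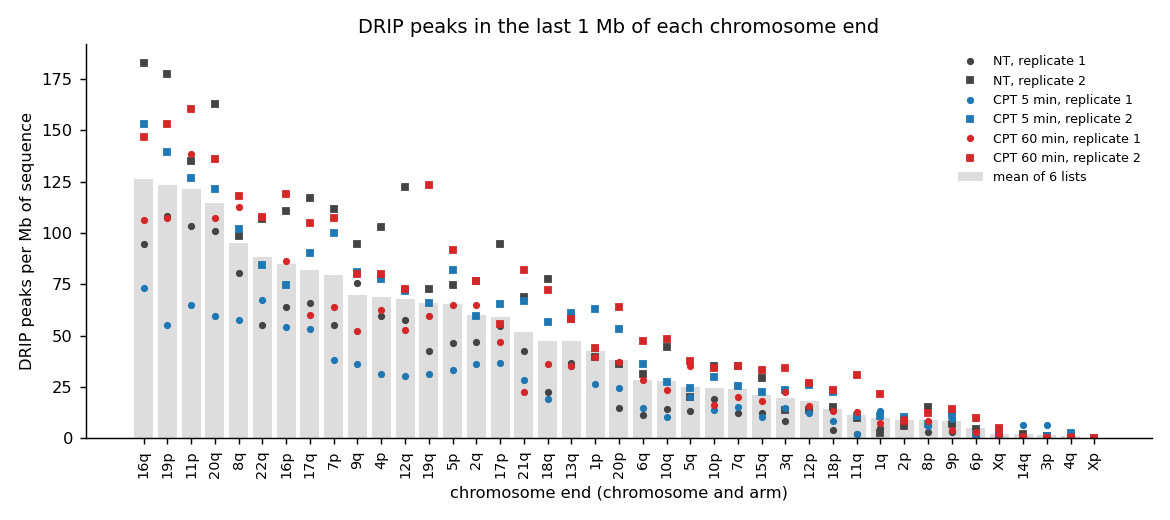
DRIP peaks per Mb of assembled sequence (y axis) in the last 1 Mb of the 41 chromosome ends with sequence (x axis, ordered by the mean). Grey bars are the mean of the 6 lists, symbols the single lists. The mean runs from 126 at 16q to 0 at Xp, and for most ends replicate 2 (squares) lies above replicate 1 (circles).

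At equal gene density the order was another. Relative to other windows of their class, 17 of the 41 ends were above 1 in all 6 lists, 10 were below 1 in all 6 and 14 were mixed. Farthest above were 10p (mean ratio 3.14), 7q (2.97) and 17q (2.84). The ends 10p and 7q held only 4 protein-coding genes each, and their ratios rest on few peaks, 13 to 33 and 12 to 35 per list. Farthest below, beside Xp at 0, were Xq (0.0589) and 1q (0.138). The 1q end has 30 protein-coding genes in its window and 2 to 18 peaks per list. Of 14q, with no protein-coding gene in its window, the lists held 0 to 6 peaks.

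Single ends went different ways after CPT. Among 28 ends with at least 10 peaks in each DRIP list, the share of the list was below NT in both replicates at 20 ends after 5 min and at 15 after 60 min, and above NT in both at 3 and 4. In the outer 500 kb alone, of 26 ends with at least 20 peaks over the 6 lists, 8 were above NT in both replicates after 5 min and 10 below, and 12 were above and 7 below after 60 min. The largest outer counts were at 19q, with 34 and 48 in NT, 16 and 43 after 5 min and 38 and 73 after 60 min. As a percent of the list 19q was at 0.1122 and 0.0906 in NT and 0.0912 and 0.1002 after 60 min, so the replicates disagreed. The next ends by count were 16q, 5p and 11p. At 16q the replicates also disagreed, at 0.0726 and 0.0906 in NT and 0.1056 and 0.0864 after 60 min. At 5p and 11p the share was higher in both. Among ends with lower counts, 16p had 8 and 17 in NT, 13 and 16 after 5 min and 27 and 51 after 60 min. The counts at 8q were 13 and 23, 13 and 26, and 38 and 50. At 19p, by contrast, the counts were 20 and 47 in NT and 24 and 32 after 60 min, in lists that were longer.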

How the data were processed

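DRIP and RNase H-digested DRIP libraries of HCT116 cells were analysed from 12 peak lists, and 6 input libraries entered only as the peak caller's background. The authors removed adapters (Cutadapt), mapped the reads to hg19 and the sacCer3 spike-in (BWA), discarded duplicates and the ENCODE blacklist (Picard, SAMtools), and ran MACS2 on each library with its input as control (versions not given in the sources used here). The deposited lists give a fold enrichment ratio over input, the −log10 p and q of the summit, and a score that entered no result. These values were not scaled by the spike-in, so the fold was compared only as a percentile within its list. Calling more peaks in a deeper library would change densities, and the study's read numbers were not used here. The antibody pull-down followed restriction digestion, so peak edges can lie at cut sites: the median fragment was 387 bp in subtelomeres and 314 bp elsewhere, and 38.5% against 19.4% of sequence lay in fragments of 2000 bp or more.

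Membership by midpoint, gene density classes, widths and percentiles were computed per list with Python 3.11.15, numpy 2.4.6, pandas 2.3.3 and scipy 1.17.1, and a Poisson regression with statsmodels 0.14.6. Windows needed 100 kb of sequence. Lists were the units of all tests, by exact sign-flip or permutation tests with Benjamini-Hochberg adjustment, and the procedure was tested on simulated data. Replicates shared a number across treatments, and the fit with that number as a block was an alternative. Named regions were the best of each end among those in all 6 lists (10 ends), the 5 best gained at both times, gained after 60 min only or lost at both times, and listed genes within 1 Mb. The members, the gene lists and the tests were chosen with earlier results of these data known. Alternatives covered the peak threshold, list length, merging of peaks up to 1000 bp apart, window size, GC content, region cover, RNase H overlap and left-out replicates.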

Additional observations from a re-analysis of the deposited data

Results flagged for a closer look

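The outer and the inner 500 kb of the chromosome ends moved in opposite directions after 60 min of CPT, in both replicates. As a percent of all peaks in a list, the outer part was at 1.105 and 1.055 in NT and 1.296 and 1.165 after 60 min, a mean difference of 0.151 percentage points (0.191 and 0.110 in replicates 1 and 2). The inner part was at 3.239 and 3.227 in NT and 2.534 and 2.031 after 60 min, a mean difference of -0.95 (-0.705 and -1.2). After 5 min both parts were below NT in both replicates, at 0.9955 and 1.029 outside and 1.976 and 2.434 inside. The difference between the parts of the window was not tested on this scale.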

How the results depend on the processing

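With the replicate number as a block, 2 values remain per test and the smallest p is 0.5: the log2 density ratio stayed at 1.46, that at equal gene density at 0.38 and the width ratio at 0.27, each with p = 0.5 in the exact permutation test. Leaving out a replicate gave 1.45 to 1.47, 0.35 to 0.42 and 0.23 to 0.31, with p = 0.25 in the exact test, the smallest that 3 lists allow. The excess at equal gene density was 1.19 with the share of bases in genes, 0.65 in the last 2 Mb, 0.11 with GC content classes (exact sign-flip test, p = 0.0625), -0.21 in the last 500 kb and -0.25 with the Poisson regression on gene density and GC (both p = 0.03125). Its change with CPT took the other sign in the same 3 settings, at 0.20 (last 500 kb), 0.048 (GC classes) and 0.22 (Poisson) after 5 min and at 0.31, 0.043 and 0.18 after 60 min. The rank difference was 6.67 points with lists of equal length and 9.72 points by −log10 p, with unadjusted p = 0.03125 each in the exact sign-flip test. Its change after 60 min was 0.15 with −log10 q of at least 3, 1.92 with equal lists, 3.11 in the last 500 kb, 0.052 without the outer 100 kb, and -2.47 to 2.39 with a replicate left out. The width change after 5 min was 0.00022 in the last 500 kb and -0.15 to 0.025 with a replicate left out. When peaks had to cover 50% of a region, 4.38% of subtelomeric regions were gained after 5 min and 20.5% after 60 min, against 9.09% and 19.4% of all regions, which turns the 60 min comparison. Without regions met by an RNase H peak, 39.2% and 41.9% were lost, against 28.1% and 30.4%. A single replicate gave 12.1% to 14.1% gained and 23.1% to 37.2% lost after 5 min (all regions 21.8% to 25.9% and 18.3% to 26.3%), and 26.9% to 34.7% and 19.5% to 29.1% after 60 min (36% to 43.2% and 15.1% to 22.2%). The change of the outer share kept its direction in all alternatives, which were chosen after seeing the data, at 5.55 to 7.71 points after 5 min and 9.24 to 10.4 after 60 min, and at 5.08 to 8.06 and 8.40 to 11.8 with a replicate left out. The cause of these differences was not tested. Read depth was not used here, and repeated sequence limits what could be mapped near the ends.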
